A study of Mus musculus with 6 samples.

Results

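Leukocyte integrins are the receptors with which neutrophils and other white blood cells hold on to vessel walls, matrix and opsonised particles. The genes described here are 9 integrin subunits, *Itgam*, *Itgal*, *Itgax*, *Itga4*, *Itga6*, *Itgb1*, *Itgb2*, *Itgb2l* and *Itgb7*, together with *Icam1*, which is not an integrin but a ligand of the β2 integrins. They were chosen by gene name, and each name matched 1 gene, so that 10 of the 55401 genes of the table were followed. RNA was sequenced from neutrophils that had been sorted from the bone marrow of 8-week-old male wild-type C57BL/6 mice as CD45+ CD11b+ Ly6G+ cells. In the Ctrl group (3 libraries) the mice were left without ligatures, and in the Lig group (3 libraries) silk had been tied around second molars of both jaws for 14 days to induce periodontitis. Each library came from a pool of 5 mice, so the p-values below measure the spread between pools. The controls are described as untreated, and no sham procedure is stated for these libraries, so that the ligation itself and the inflammation it causes cannot be told apart. CD11b, one of the proteins of the gate, is the product of *Itgam*, so a cell had to carry this member to be measured at all.

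An integrin is a pair of an α and a β chain, and a chain reaches the cell surface only with a partner. The β2 chain (CD18, *Itgb2*) pairs with αL (*Itgal*) to form LFA-1, with αM (*Itgam*) to form Mac-1 and with αX (*Itgax*) to form CD11c/CD18. LFA-1 and Mac-1 bind ICAM-1 on endothelium and carry the firm adhesion and crawling of neutrophils, and Mac-1 also takes up particles coated with the complement fragment iC3b. The α4 chain (*Itga4*) pairs with β1 (*Itgb1*) to form VLA-4, a receptor for VCAM-1 and fibronectin that retains cells in the marrow, or with β7 (*Itgb7*) to form the MAdCAM-1 receptor of gut-homing lymphocytes. The α6 chain (*Itga6*) forms a laminin receptor with β1. *Itgb2l* codes for a β chain similar to β2.

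Total counts ranged from 50605309 to 61455112 per library on the deposited scale. The label of the cells was borne out by neutrophil markers, whose summed FPKM (fragments scaled to transcript length and to the mapped fragments of a library) was 90119 to 99690.7 in Ctrl and 111520 to 121576 in Lig. Of 12 neutrophil markers, 6 were higher in Lig (*Ngp*, *Ltf*, *Camp*, *S100a8*, *Ly6g* and *S100a9*) and 0 were lower by edgeR's quasi-likelihood test (adjusted p under 0.05 over all genes). *Mpo* and *Elane*, granule genes of early precursors, were lower in every Lig library without a call (75.4 and 45.8 FPKM for *Mpo*, adjusted p = 0.0517, and 46.4 and 30.6 FPKM for *Elane*, 0.0839). RNA of other cell types was also present and was lower in Lig in most lists. All 8 erythroid markers fell (summed FPKM 1307.18 to 1759.48 in Ctrl and 392.87 to 502.83 in Lig), as did 6 of 8 B cell markers (99.13 to 128.69 and 49.99 to 55.77). Only genes averaging 1 FPKM or more across all 6 libraries were tested, and of all these 3.96% were called higher and 6.43% lower. In the T and NK cell list 4 of 9 were tested and 2 fell (18.67 to 20.03 and 11.69 to 15.49). In the monocyte, macrophage and dendritic cell list 5 of 11 were tested and 1 fell (46.48 to 48.09 and 34.56 to 37.39). In the progenitor list 3 of 5 were tested and 2 fell (16.38 to 19.66 and 8.94 to 10.82). In the platelet list 2 of 7 were tested and 0 were called (19.44 to 21.83 and 16.77 to 19.29). These 2 were the integrin chains *Itga2b* and *Itgb3*, and *Itgb3* made up most of the platelet sum. In the eosinophil, basophil and mast cell list 6 of 8 were tested and 0 were called (76.25 to 95.58 and 37.09 to 98.21), with Lig 1 lowest. No marker of any list was at 0 in all 6 libraries. In such bulk samples, fewer cells of a type and less RNA per cell cannot be told apart.

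The sequences that matter for reading the *Itgam* values are shown first. *Itgam* (ENSMUSG00000030786, chr7:128062640-128118491, plus strand, GRCm38) shares its span with a second protein-coding gene of the table, *Gm49368* (ENSMUSG00000108596, chr7:128062683-128128160, plus strand). In the GENCODE M21 annotation, the coding transcripts of *Itgam* and *Gm49368* compared here both have 30 exons. Of the 28 exons from 2 to 29, 27 were identical, and exon 14 was 3 bases shorter in *Gm49368*. The shared 3450 exonic bases made up 73.69% of the *Itgam* transcript (4682 bases) and 71.83% of the *Gm49368* transcript (4803 bases). After exon 29, which ends at position 128116846, *Itgam* continues into a last exon at chr7:128117306-128118491 and *Gm49368* into one at chr7:128126808-128128160. The junctions at which they part are given with 15 bases on each side, the last exon in capitals, because reads that lie within the shared exons match both genes.
Itgam: gctggcctatacaagCTTGGCTTTTTCAAG
Gm49368: gctggcctatacaagGCAGCCTCAGCTGTG
Of all 31-base words in the *Itgam* transcripts, 68.1% also occurred in another gene, nearly all of them in *Gm49368*. For *Itgax* this share was 10.7% (words shared with its neighbour family member *Itgad*), for *Itga6* 6.15%, and for the other members 3.5% or less. *Itgb2* and *Itgb2l* had no 31-base word in common.

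The promoters of the 4 members that differed between the groups, and that of the gate gene *Itgam*, are shown because the genes moved in different directions. The sequences are the 250 bases before the RefSeq start site (GRCm38.p6), read along the gene, and RefSeq promoters were matched for 7 of the 10 members. Capitals mark matches on either strand to 5 short words: GAGGAA (PU.1, the master factor of myeloid genes), GGGCGG (SP1), TGTGGT (RUNX), GAAANNGAA (IRF) and GGAAATTCC (NF-kB).
Itgb2l (chr16:96443615-96443864, minus strand): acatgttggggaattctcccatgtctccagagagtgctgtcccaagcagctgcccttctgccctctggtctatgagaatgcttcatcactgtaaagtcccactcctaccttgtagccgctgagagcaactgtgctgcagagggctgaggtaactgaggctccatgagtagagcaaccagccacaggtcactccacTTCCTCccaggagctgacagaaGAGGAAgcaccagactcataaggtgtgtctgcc
Itgb7 (chr15:102231936-102232185, minus strand): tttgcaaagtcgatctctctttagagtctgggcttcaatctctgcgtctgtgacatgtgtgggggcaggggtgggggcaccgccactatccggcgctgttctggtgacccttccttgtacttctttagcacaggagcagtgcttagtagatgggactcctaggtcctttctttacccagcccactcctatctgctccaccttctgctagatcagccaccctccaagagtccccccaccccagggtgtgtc
Itga4 (chr2:79255176-79255425, plus strand): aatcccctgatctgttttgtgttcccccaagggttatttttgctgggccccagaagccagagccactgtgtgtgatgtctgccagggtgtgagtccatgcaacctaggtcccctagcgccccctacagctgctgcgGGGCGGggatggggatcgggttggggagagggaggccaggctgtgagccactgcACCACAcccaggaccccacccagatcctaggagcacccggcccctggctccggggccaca
Itgax (chr7:128129300-128129549, plus strand): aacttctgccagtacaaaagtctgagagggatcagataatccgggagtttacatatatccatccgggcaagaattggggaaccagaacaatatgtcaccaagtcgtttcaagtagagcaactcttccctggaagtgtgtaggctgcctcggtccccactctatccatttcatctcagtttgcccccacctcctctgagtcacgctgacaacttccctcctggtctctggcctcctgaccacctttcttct
Itgam (chr7:128062390-128062639, plus strand): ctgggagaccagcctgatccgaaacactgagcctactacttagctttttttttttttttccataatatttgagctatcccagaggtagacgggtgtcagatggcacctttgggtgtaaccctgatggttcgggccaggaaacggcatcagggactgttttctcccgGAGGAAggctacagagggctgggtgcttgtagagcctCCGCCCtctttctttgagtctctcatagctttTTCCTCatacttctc
The *Itgb2l* promoter held the PU.1 word at −55 and −33, counted as the first base of the match before the start site, and the *Itgam* promoter held it at −84 and −15 with an SP1 word at −47. The *Itga4* promoter held an SP1 word at −114 and a RUNX word at −60. None of the 5 words was found in the windows of *Itgb7* and *Itgax*. Of the members whose promoters are not shown, *Itgb1*, which was not called, held the PU.1 word at −9 and an SP1 word at −151. *Icam1*, also not called, held an SP1 word at −17. Among all 32851 RefSeq promoter windows of the same length, 23.25% held the PU.1 word, 32.74% the SP1 word, 14.05% the RUNX word, 7.13% the IRF word and 0.29% the NF-kB word, which among the members was found in *Icam1* at −153. A match is a description of the letters and not evidence of a bound factor.

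The comparison of Lig with Ctrl asked whether the integrin transcripts of marrow neutrophils differ in mice with ligature-induced periodontitis. The β2 chain, its neutrophil partners and the β2-like chain *Itgb2l* were the abundant members, and of these only *Itgb2l* passed the test, upwards. The β7 chain *Itgb7*, the α4 chain *Itga4* and the αX chain *Itgax* fell. Of the 9 members tested (those with 1 FPKM or more on average across all 6 libraries), 4 were called, 1 higher and 3 lower, and 5 were not. Over all 9632 genes tested, 1000 were called (10.4%), of which 381 were higher (3.96%) and 619 lower (6.43%). That balance depended on the scaling of the libraries, with 168 higher and 917 lower on library size alone and 97 higher and 1232 lower after rescaling FPKM to an equal sum. The FPKM of the 2 groups did not overlap for 7 tested members, 3 higher in Lig and 4 lower, against 9.9% of all tested genes higher and 24.9% lower. The 3 higher were *Itgb2*, *Itgb2l* and *Itgam*. For *Itgam* the groups all but touched, at 252.64 FPKM in Ctrl 2 and 252.68 FPKM in Lig 3. The median log2 fold change of the 9 members was −0.01, against −0.001 for all genes, so the members did not move one way as a group.

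**Figure D1:**
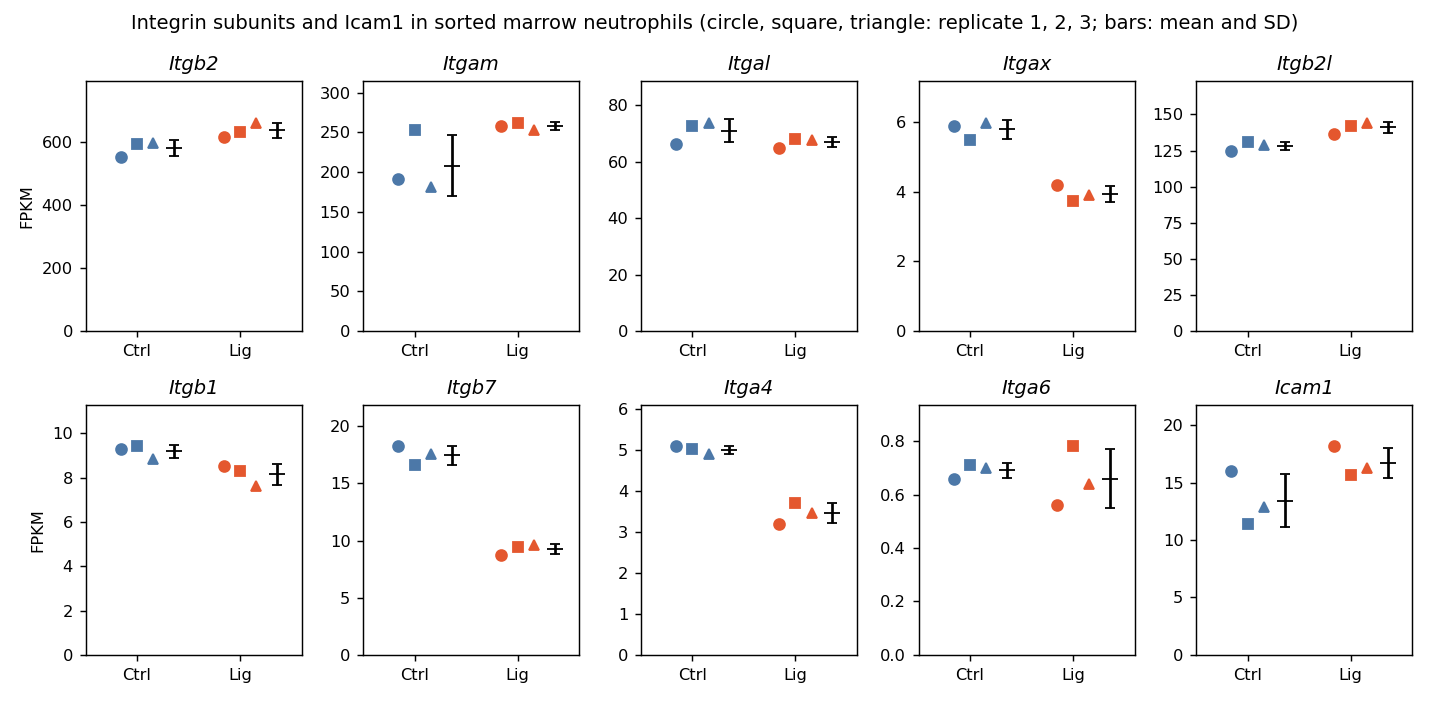
FPKM of the 10 members (y axes, each from 0) in the 3 Ctrl and 3 Lig libraries, with 1 symbol per library and bars for the mean and SD of a group. *Itgb7*, *Itga4* and *Itgax* lie lower in all Lig libraries than in any Ctrl library, and *Itgb2l* lies higher.

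Together the members had 987.59 to 1165.98 FPKM per library. *Itgb2* made up 55.7% of this sum, *Itgam* 21.4%, *Itgb2l* 12.3% and *Itgal* 6.32%, while each of the other 6 members contributed 1.38% or less. By mean FPKM, *Itgb2* was the 54th most abundant gene of the table, *Itgam* the 170th, *Itgb2l* the 312th and *Itgal* the 597th.

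*Itgb2* (ENSMUSG00000000290, chr10:77530252-77565686, plus strand), the common β chain of the leukocyte integrins, measured 549.84, 593.34 and 595.33 FPKM in Ctrl and 615.03, 631.61 and 659.75 FPKM in Lig. Every Lig library was above every Ctrl library, although the step from the highest Ctrl to the lowest Lig library was small. The means were 580 ± 25.7 and 635 ± 22.6 FPKM (SD, n = 3 each). The log2 fold change of 0.21 ± 0.05 (SE) missed the threshold (edgeR adjusted p = 0.0565). DESeq2 called it (adjusted p = 0.0250), but 0 of 6 fits with 1 library left out did, and the log2 fold change was 0.13 on library size alone (adjusted p = 0.135) and 0.06 after rescaling FPKM to an equal sum (adjusted p = 0.541).

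*Itgam*, which codes for CD11b, measured 191.26, 252.64 and 181.37 FPKM in Ctrl and 258.75, 262.28 and 252.68 FPKM in Lig. The Lig libraries lay close together, whereas Ctrl 2 stood apart from the other 2 controls and reached the level of Lig 3. The means were 208 ± 38.6 and 258 ± 4.86 FPKM (SD, n = 3 each), with a log2 fold change of 0.38 ± 0.13 that was not called (edgeR adjusted p = 0.101). Without Ctrl 2 the gene was called at a log2 fold change of 0.56 (adjusted p = 0.0103), and in the 5 other fits with 1 library left out it was not, with a log2 fold change down to 0.29 without Ctrl 3 (adjusted p = 0.249).

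The overlapping gene *Gm49368* measured 187.66, 145.56 and 215.14 FPKM in Ctrl and 160.30, 186.60 and 195.84 FPKM in Lig. It was lowest in Ctrl 2, where *Itgam* was highest among the controls, and highest in Ctrl 3, where *Itgam* was lowest. Its means of 183 ± 35.0 and 181 ± 18.4 FPKM did not differ detectably (log2 fold change 0.06, edgeR adjusted p = 0.810). The processed pseudogene *Gm45700* lies within the last exon of *Gm49368*, on the same strand and over 347 bases, and measured 19.26 to 23.58 FPKM across the libraries.

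When *Itgam* and *Gm49368* were added, the spread among controls shrank. The sums were 378.92, 398.20 and 396.51 FPKM in Ctrl and 419.05, 448.88 and 448.52 FPKM in Lig, with every Lig library above every Ctrl library. The coefficient of variation among controls was 18.5% for *Itgam* alone and 2.73% for the sum. Among the Lig libraries it was larger for the sum, at 1.88% for *Itgam* alone and 3.90% for the sum. The mean sum was 391 ± 10.7 FPKM in Ctrl and 439 ± 17.1 FPKM in Lig (SD, n = 3 each), and *Itgam* held 50.5%, 63.4% and 45.7% of it in Ctrl and 61.7%, 58.4% and 56.3% in Lig (exact permutation p = 0.4, two-sided). With the counts of both genes summed into 1, the log2 fold change was 0.24 ± 0.05 and passed the threshold (edgeR adjusted p = 0.028, 1001 of 9631 genes called, 10.4%). The sum was formed after the values had been seen, and it was called in 2 of 6 fits with 1 library left out (adjusted p 0.038 to 0.107), those without Ctrl 2 and without Lig 1. How reads were shared out between the 2 genes is not given in the sources used here, and its part in the *Itgam* values was not tested.

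**Figure D2:**
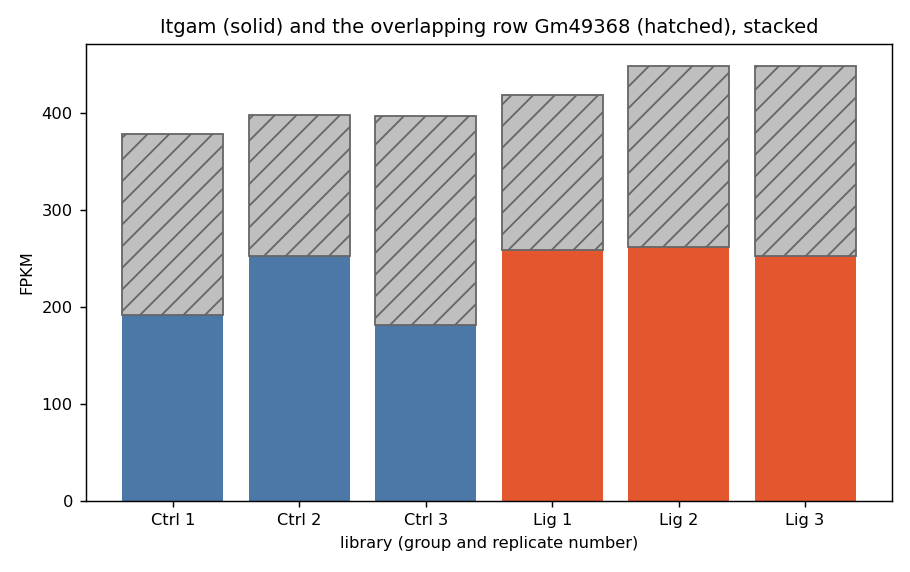
FPKM of *Itgam* (solid) and of the overlapping gene *Gm49368* (hatched), stacked for each of the 6 libraries (y axis, FPKM from 0). The boundary between the 2 genes moves from library to library, at 181.37 FPKM in Ctrl 3 and 252.64 FPKM in Ctrl 2, while the full height is 378.92 to 398.20 FPKM in Ctrl and 419.05 to 448.88 FPKM in Lig.

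*Itgal* (ENSMUSG00000030830, chr7:127296260-127335138, plus strand), the α chain of LFA-1, measured 66.35, 72.74 and 73.77 FPKM in Ctrl and 64.95, 68.00 and 67.77 FPKM in Lig. The groups overlapped, as Ctrl 1 lay below 2 of the Lig libraries. Means were 71.0 ± 4.02 and 66.9 ± 1.70 FPKM (SD, n = 3 each), and the log2 fold change of −0.01 ± 0.06 was smaller than its error (edgeR adjusted p = 0.928).

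*Itgax* (ENSMUSG00000030789, chr7:128129547-128150657, plus strand) codes for CD11c, best known from dendritic cells and tissue macrophages. It measured 5.90, 5.48 and 5.98 FPKM in Ctrl and 4.18, 3.73 and 3.92 FPKM in Lig. All Lig libraries were below all controls, with a clear gap. The mean fell from 5.79 ± 0.269 to 3.94 ± 0.226 FPKM (SD, n = 3 each), a log2 fold change of −0.48 ± 0.08 (edgeR adjusted p = 0.0176). The call was lost without Ctrl 1, Ctrl 3 or Lig 3 (adjusted p = 0.0524, 0.0796 and 0.0727). Of the 11 monocyte, macrophage and dendritic cell markers 5 could be tested, with a median log2 fold change of −0.68. Only 1 was called, *F13a1*, which fell from 3.61 to 1.44 FPKM. *Irf8* (log2 fold change −0.76), *Siglech* (−0.68) and *Adgre1* (−0.12) were lower on average without a call. *Csf1r*, the most abundant of them, measured 23.1 ± 1.17 FPKM in Ctrl and 20.6 ± 0.827 FPKM in Lig (log2 fold change −0.09), also without a call. The part of such cells in the *Itgax* values was not tested.

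*Itgb2l* (ENSMUSG00000000157, chr16:96422288-96443619, minus strand) measured 124.99, 130.75 and 128.60 FPKM in Ctrl and 136.63, 142.21 and 144.25 FPKM in Lig. The groups were tight and did not overlap. The mean rose from 128 ± 2.91 to 141 ± 3.94 FPKM (SD, n = 3 each), a log2 fold change of 0.21 ± 0.05 (edgeR adjusted p = 0.0376). This was nearly the same size of change as in *Itgb2*, and both lay near the threshold. Of 6 fits with 1 library left out, only the one without Ctrl 2 called it (adjusted p = 0.0452, up to 0.125 in the others), and limma on log2(FPKM + 1) did not (adjusted p = 0.0951). Of the 12 neutrophil markers, the 6 that rose had log2 fold changes of 0.32 to 0.48. Those not called were *Retnlg* (0.26), *Mmp8* (0.23), *Csf3r* (0.12), *Cxcr2* (0.01), *Mpo* (−0.65) and *Elane* (−0.53). The part of these genes' shifts in the *Itgb2l* values was not tested.

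*Itgb7* (ENSMUSG00000001281, chr15:102215995-102231944, minus strand) showed the largest change of the 9 tested members. It measured 18.24, 16.59 and 17.56 FPKM in Ctrl and 8.74, 9.40 and 9.60 FPKM in Lig, so that even the lowest control was far above the highest Lig library. The mean fell from 17.5 ± 0.829 to 9.25 ± 0.450 FPKM (SD, n = 3 each), with a log2 fold change of −0.84 ± 0.07 (edgeR adjusted p = 0.00251). The call held in all 6 fits with 1 library left out (adjusted p 0.0103 to 0.0191) and in the 9 other settings tried. By size of change it was the 437th of the tested genes.

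*Itga4* (ENSMUSG00000027009, chr2:79255426-79333123, plus strand), the partner chain of both β7 and β1, fell as well. It measured 5.08, 5.01 and 4.90 FPKM in Ctrl and 3.20, 3.69 and 3.46 FPKM in Lig. The controls were almost alike, and all Lig libraries were lower. Means were 4.997 ± 0.0907 and 3.45 ± 0.245 FPKM (SD, n = 3 each), and the log2 fold change was −0.46 ± 0.07 (edgeR adjusted p = 0.0105). It was called in all 6 fits with 1 library left out (adjusted p 0.0223 to 0.0476).

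*Itgb7* and *Itga4* are also made by lymphocytes and progenitors, some of whose markers fell. The 8 B cell markers had a median log2 fold change of −1.002, with *Cd79a* at 54.6 FPKM in Ctrl and 26.3 FPKM in Lig. In the T and NK cell list, 4 of 9 could be tested, with a median of −0.53, *Trbc2* at 3.47 and 1.49 FPKM and *Il2rb* at 3.78 and 2.18 FPKM, while *Nkg7* (7.52 and 5.66 FPKM) and *Cd3d* (3.1 and 2.96 FPKM) were not called. In the progenitor list, 3 of 5 could be tested, with a median of −0.69, *Sox4* at 7.59 and 3.25 FPKM and *Myb* at 6.10 and 3.57 FPKM, while *Kit* (2.32 and 2.11 FPKM) was not called. The part of such cells in the *Itgb7* and *Itga4* values was not tested.

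*Itgb1* (ENSMUSG00000025809, chr8:128685654-128733200, plus strand), the β chain of VLA-4, measured 9.30, 9.41 and 8.84 FPKM in Ctrl and 8.53, 8.31 and 7.62 FPKM in Lig. The groups did not overlap on this scale, but only narrowly. Means were 9.18 ± 0.302 and 8.15 ± 0.475 FPKM (SD, n = 3 each), and on the counts the log2 fold change was −0.10 ± 0.07 and was not called (edgeR adjusted p = 0.447).

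*Itga6* (ENSMUSG00000027111, chr2:71745616-71858416, plus strand), the laminin receptor chain, measured 0.66, 0.71 and 0.70 FPKM in Ctrl and 0.56, 0.78 and 0.64 FPKM in Lig. The Lig libraries enclosed the controls. With a mean of 0.675 FPKM it lay under the filter, and in a fit without the filter its log2 fold change was 0.05 ± 0.16 (edgeR adjusted p = 0.910).

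*Icam1* (ENSMUSG00000037405, chr9:21015985-21028817, plus strand) codes for the ligand of LFA-1 and Mac-1, which is itself inducible on activated neutrophils. It measured 15.97, 11.44 and 12.88 FPKM in Ctrl and 18.15, 15.62 and 16.29 FPKM in Lig. The groups overlapped because Ctrl 1 was above Lig 2. Means were 13.4 ± 2.31 and 16.7 ± 1.31 FPKM (SD, n = 3 each), and the log2 fold change of 0.39 ± 0.12 was not called (edgeR adjusted p = 0.0818). Without Ctrl 1 it was called (adjusted p = 0.0405, log2 fold change 0.52), and in the 5 other fits with 1 library left out it was not, with a log2 fold change down to 0.30 without Ctrl 2 (adjusted p = 0.163).

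**Figure D3:**
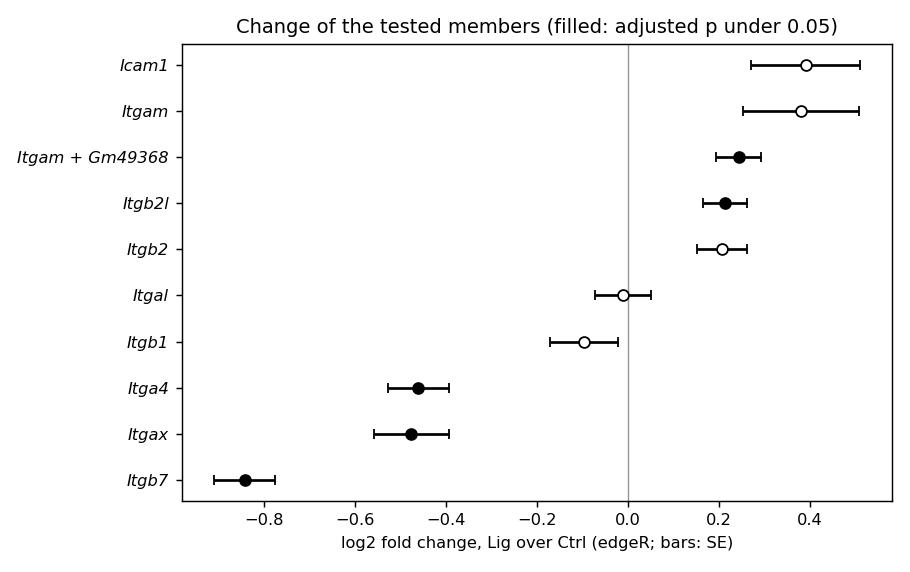
Log2 fold change of Lig over Ctrl from edgeR (x axis) for the 9 tested members and for the sum of *Itgam* and *Gm49368*, with bars for the SE and filled circles for an adjusted p under 0.05. *Itgb7* at −0.84, *Itgax* at −0.48 and *Itga4* at −0.46 lie below 0, and *Itgb2l* at 0.21 and the sum at 0.24 lie above it.

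Other genes overlap members too, but hardly any expression was assigned to them. *Gm49948* on the strand opposite to *Itgb2l*, and *Gm13739*, *Gm13662* and *Gm13663* within *Itga6*, were listed at 0 in every library. *Cerkl*, opposite to *Itga4*, had 0.0233 FPKM in Ctrl and 0.0033 FPKM in Lig on average, and *Gm47079*, antisense to *Icam1*, had 0.113 and 0.05 FPKM.

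Because a chain needs a partner, the ratio of subunit FPKM was compared within each library for 7 pairs. Each set an α chain against a β chain, except *Itgb2l* with *Itgb2*, which are both β chains. With 3 libraries against 3 the exact two-sided permutation test cannot go below p = 0.1, so no pair could pass the threshold. The ratio of *Itgal* to *Itgb2* was 0.121, 0.123 and 0.124 in Ctrl and 0.106, 0.108 and 0.103 in Lig, with all Lig libraries lower (mean 0.122 ± 0.00163 and 0.105 ± 0.00248, exact p = 0.1, adjusted over the 7 pairs 0.175). The ratio of *Itgam* to *Itgb2* was 0.359 ± 0.0614 in Ctrl and 0.406 ± 0.0204 in Lig, and the groups overlapped (exact p = 0.4, adjusted 0.56). Its log2 difference of 0.19 became 0.32 without Ctrl 2, 0.08 without Ctrl 3 and 0.03 with *Gm49368* summed into *Itgam*. That of *Itgax* to *Itgb2* was 0.01 ± 0.000748 and 0.00621 ± 0.000504, without overlap (exact p = 0.1, adjusted 0.175). *Itgb2l* kept close step with *Itgb2* in every library, at 0.227, 0.220 and 0.216 in Ctrl and 0.222, 0.225 and 0.219 in Lig. That ratio averaged 0.221 ± 0.0057 and 0.222 ± 0.00326 (exact p = 0.9, adjusted 0.9).

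The ratios around α4 were subject to the same limit. The ratio of *Itga4* to *Itgb1* was 0.546, 0.532 and 0.554 in Ctrl and 0.375, 0.444 and 0.454 in Lig, so that it was lower in all Lig libraries (exact p = 0.1, adjusted 0.175). The ratio of *Itga4* to *Itgb7* was 0.279, 0.302 and 0.279 in Ctrl and 0.366, 0.393 and 0.3604 in Lig, higher in all of them (exact p = 0.1, adjusted 0.175). In every library *Itgb7* thus exceeded *Itga4*, and *Itgb1* did too. The ratio of *Itga6* to *Itgb1* was 0.0752 ± 0.00411 in Ctrl and 0.0812 ± 0.0143 in Lig, with overlap (exact p = 0.6, adjusted 0.7).

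**Figure D4:**
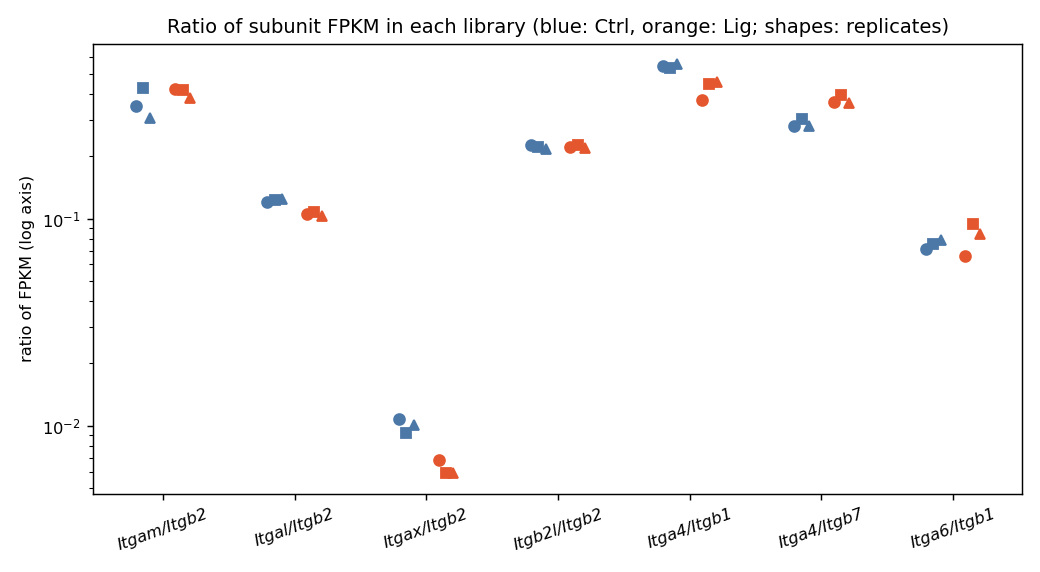
Ratio of the FPKM of 7 pairs of subunits (y axis, log scale) in each library, with Ctrl in blue, Lig in orange and 1 symbol shape per replicate number. The ratios of *Itgal*, *Itgax* and *Itga4* to *Itgb2* or *Itgb1* are lower in every Lig library, that of *Itga4* to *Itgb7* is higher, and that of *Itgb2l* to *Itgb2* stays between 0.216 and 0.227.

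The remaining integrin chains of the mouse were scarce in these cells. Of 19 other subunits, 15 had a mean below 1 FPKM and 4 of those were listed at 0 in every library (*Itga11*, *Itgb6*, *Itgb8* and *Itgbl1*). The 4 that could be tested, *Itgb3*, *Itga5*, *Itga2b* and *Itgav*, gave 0 calls, with a median log2 fold change of −0.08 against −0.001 for all genes. *Itgb3*, the β chain of the platelet fibrinogen receptor and the vitronectin receptor, was the most abundant at 15.4 ± 0.825 FPKM in Ctrl and 14.98 ± 0.440 FPKM in Lig (SD, n = 3 each), and *Itga5*, the fibronectin receptor chain, followed at 2.62 ± 0.356 and 2.16 ± 0.288 FPKM. The αD chain *Itgad*, a further partner of β2, measured 0.377 and 0.173 FPKM.

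Integrins are switched on from inside the cell when the small GTPase Rap1 recruits talin and kindlin to the β chain. Of 28 genes for this step and for the link to actin, 22 could be tested, of which 3 rose, 0 fell and 19 were not called (3.96% of all tested genes were called higher and 6.43% lower), with a median log2 fold change of 0.13 against −0.001 for all genes. *Rap1a*, a gene for this GTPase, rose from 20.03 ± 0.197 to 24.1 ± 0.831 FPKM (log2 fold change 0.34 ± 0.06, edgeR adjusted p = 0.0153). The far more abundant *Rap1b* measured 252 and 257 FPKM and was not called (adjusted p = 0.349). The talin gene *Tln1* (151 and 161 FPKM, adjusted p = 0.0625) and the kindlin gene *Fermt3* (46.5 and 47.8 FPKM, 0.194) were not called either. *Flna*, which codes for the actin cross-linker filamin A that binds β chain tails, rose from 324 ± 8.86 to 370 ± 16.4 FPKM (0.27 ± 0.05, adjusted p = 0.0165). *Skap2*, an adaptor needed for β2 integrin activation in mouse neutrophils, rose from 20.4 ± 0.935 to 24.2 ± 0.375 FPKM (0.32 ± 0.06, adjusted p = 0.0200). *Vasp*, an actin regulator and the most abundant gene of this list, measured 545 and 614 FPKM and was not called (adjusted p = 0.0529). The FPKM of the groups did not overlap for 4 tested genes higher in Lig and 2 lower (9.9% and 24.9% of all tested genes). The 2 lower, neither of them called, were *Ptk2b* (51.3 and 43.9 FPKM, adjusted p = 0.0849) and *Prex1* (46.3 and 40.9 FPKM, 0.255).

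Of 19 further ligands and counter-receptors, 7 could be tested, of which 1 rose and 1 fell (against 3.96% and 6.43% of all tested genes), with a median log2 fold change of −0.06 against −0.001 for all genes. *C3*, the complement protein whose fragment iC3b is bound by Mac-1, rose from 229 ± 5.34 to 262 ± 13.4 FPKM (log2 fold change 0.27 ± 0.05, edgeR adjusted p = 0.0218). *Fn1*, fibronectin, a ligand of VLA-4, measured 4.41, 8.11 and 6.86 FPKM in Ctrl and 2.75, 2.41 and 2.56 FPKM in Lig. It fell by 1.25 ± 0.21 on the log2 scale (adjusted p = 0.0165). *Cd47*, a widely expressed surface protein that associates with integrins, was the next most abundant of the list at 25.3 ± 2.03 FPKM in Ctrl and 23.1 ± 1.24 FPKM in Lig and was not called. *Vcam1*, the endothelial and stromal ligand of VLA-4, averaged 0.833 FPKM in Ctrl and 0.61 FPKM in Lig. *Madcam1*, *Fga*, *Fgb*, *Fgg* and *Vtn* were listed at 0 in every library.

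Profiles were compared by the root mean square difference of centred log2 CPM (counts scaled to library size adjusted by TMM) over the 6 libraries. For each called member, the 2 tested genes with the most similar profile, those with the smallest difference, were found. For *Itgb2l* these were *Pgd*, a dehydrogenase of the pentose phosphate pathway (0.00879, 172 FPKM in Ctrl and 189 FPKM in Lig), and *Ptpn12*, a tyrosine phosphatase (0.0127). The median difference from *Itgb2l* over all genes was 0.204. For *Itgb7* they were *Txndc5*, a protein disulfide isomerase (0.0448), and *Igkc*, the κ constant region of antibodies, which measured 138 FPKM in Ctrl and 75.1 FPKM in Lig (0.0521, against a median of 0.458). For *Itga4* they were *Nfx1*, a DNA-binding zinc finger protein (0.0264), and *Huwe1*, a ubiquitin ligase (0.0435, median 0.295). For *Itgax* they were *Txnrd1*, thioredoxin reductase (0.0415), and *Sh2b2*, an adaptor of receptor kinases (0.0425, median 0.302).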

How the data were processed

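Neutrophils of 3 Ctrl and 3 Lig pools were measured by paired-end RNA sequencing. Groups and replicate numbers were taken from the labels. Per the submitters' processing notes, cutadapt 1.9 (trimming), FastQC (quality) and the build GRCm38 were used. Which aligner, quantifier and annotation release served, and whether libraries were stranded, is not given in the sources used here. FPKM were deposited by the authors with no further scaling between libraries, beside estimated counts, which the authors deposited as whole numbers. Low count values (1 to 16) of a library were multiples of 4 in 40.2% to 41.3% of cases, where 25% would be even, so that these counts may not be counts of read pairs, and the true depth is unknown. The 9 members with identical coordinates in GENCODE M21 were taken to use its gene models, which were also used for the tenth.

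A gene was tested when its FPKM averaged 1 or more across all 6 libraries (9632 genes). Counts were scaled by TMM and compared with edgeR 4.0.16 (quasi-likelihood test, R 4.3.3), without covariates. P values were two-sided and adjusted by Benjamini and Hochberg over all tested genes, with a threshold of 0.05. Ratios of subunits were computed from FPKM and compared on the log2 scale by exact permutation (scipy 1.17.1). The script was tested on simulated data. The members and gene lists were chosen with earlier results of these data known. Named genes were the members, genes overlapping them, of each list those called (up to 6 by p) and the 2 most abundant, and the 2 nearest profiles of each called member; a gene so chosen is not reported here. *Gm45700*, *Itgad*, *Vcam1*, *Rap1b*, *Tln1*, *Fermt3*, markers named as not called and genes named to spell out counts lie outside this rule. They were chosen after their values were seen, as was the sum of *Itgam* and *Gm49368*. Alternatives were other filters, scalings, DESeq2 1.42.0, limma 3.58.1 on log2(FPKM + 1), a replicate block and leaving out each library in turn.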

Additional observations from a re-analysis of the deposited data

How the results depend on the processing

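Of the 4 called members, only *Itgb7* was called in all settings tried. With a mean FPKM of at least 5 only 1 member was called (604 of all genes), which removed *Itga4* and *Itgax* from the test. DESeq2 called 7 members and 1741 genes, and without a filter 667 genes were called, *Itgal* having a log2 fold change of 0.029. With 1 library left out, 2 to 5 members and 278 (without Lig 3) to 694 (without Ctrl 2) genes were called, with 543 or fewer in the 5 fits other than the last, and *Itgal* ranged from −0.067 to 0.020. Without Ctrl 3 or without Lig 3, 2 members were called. With a replicate block 1 member and 54 genes were called, *Itgb7* at adjusted p = 0.044, *Itga4* at 0.059, *Itgax* at 0.0762 and *Itgb2l* at 0.102. Libraries with the same number did not deviate together from their group means (r = −0.061, −0.0959 and 0.0391 across genes). With 3 libraries a group these values cannot exclude a pairing. The sources used here state none. Rescaling FPKM to an equal sum moved the median of all genes to −0.14, and *Itgb2l* then had a log2 fold change of 0.06 (adjusted p = 0.432). The sum of *Itgam* and *Gm49368* was called by DESeq2 (adjusted p = 0.00333) and not with a replicate block (0.0797), on library size alone (0.0544), by limma on log2(FPKM + 1) (0.0749) or after rescaling (0.297). The causes of these changes were not tested. The log2 differences of the 7 ratios moved by less than the pooled SD of their libraries in every alternative. That SD was wide for *Itgam* to *Itgb2* (0.18) and *Itga6* to *Itgb1* (0.195). The difference of *Itga6* to *Itgb1* ranged from −0.017 without Lig 2 to 0.24 without Lig 1. That of *Itgb2l* to *Itgb2*, 0.0051 with all libraries, was −0.012 without Ctrl 3 and −0.0052 without Lig 2. With pools of 5 mice in 3 libraries a group, differences the size of that in *Itgb2* lie near the limit of what passes.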
